A study of Mus musculus with 6 samples.

Results

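The genes described here are 46 genes of DNA replication and nucleotide supply, chosen by name for their role, out of 32903 gene symbols in the table. They were measured by sequencing of polyadenylated RNA from MuTuDC1940, a line of mouse dendritic cells that resembles the conventional subset known as cDC1. The treated cultures received poly(I:C), a synthetic mimic of the double-stranded RNA of viruses, at 5 µg/ml for 18 hours, and the other samples were untreated. The series has 3 samples per group, of which 2 poly(I:C) libraries (PolyIC01 and PolyIC02) and 2 untreated libraries (NT01 and NT02) are compared. All libraries come from 1 cell line, which arose from spleen tumours of mice that express the SV40 large T antigen in dendritic cells from the CD11c promoter. Large T antigen is an oncoprotein that binds the retinoblastoma proteins, and the untreated cells carry it too. Separate cultures are not named in the labels, so each p-value reflects the spread among 4 libraries and possibly no more than technical spread.

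A cell copies its DNA in S phase in a fixed order of steps. The origin recognition complex (ORC), Cdc6 and Cdt1 first load the MCM helicase on DNA in G1. Cdc45 and the GINS complex then turn the loaded helicase into the moving fork, where a sliding clamp, its loader and the polymerases make the new strands from deoxynucleotides. Many of these genes are known targets of E2F transcription factors, which the retinoblastoma proteins hold in check. Dendritic cells that meet a viral or bacterial signal are known to mature and stop dividing.

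Most of the 46 genes fell in cells given poly(I:C), and 4 went the other way. All 46 passed the expression limit of a mean of 0.5 TPM (an abundance per transcript length relative to a fixed total), which 12520 genes reached. In limma, at an adjusted p under 0.05, 37 of the 46 (80.4%) fell, where 32.4% of all genes tested fell. Another 4 (8.70%) rose, where 28.4% of all genes tested rose, and 5 did not pass. In either direction, 60.8% of all genes tested passed. The median log2 change in TPM + 1 was -0.42 over the 46 genes and -0.02 over all genes tested. Most falls were modest: 4 genes (Clspn, Rrm2, Tk1 and Pole) fell at least 2-fold, 8.70% of the 46 against 2.76% of all genes tested, none rose that far, which 5.69% of all genes tested did, and 15 more had a log2 change between -1 and -0.5. Both poly(I:C) libraries lay below both untreated ones for 39 of the 46 genes (84.8%), where this held for 42.4% of all genes tested. The groups did not overlap for 45 of the 46, and for 81.3% of all genes tested. Summed over the 46 genes, the level was 4763 and 4755 TPM in the poly(I:C) libraries and 5938 and 5929 TPM in the untreated ones. In RNA from a whole culture, fewer cells in S phase and less RNA of these genes per cell cannot be told apart.

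**Figure D1:**
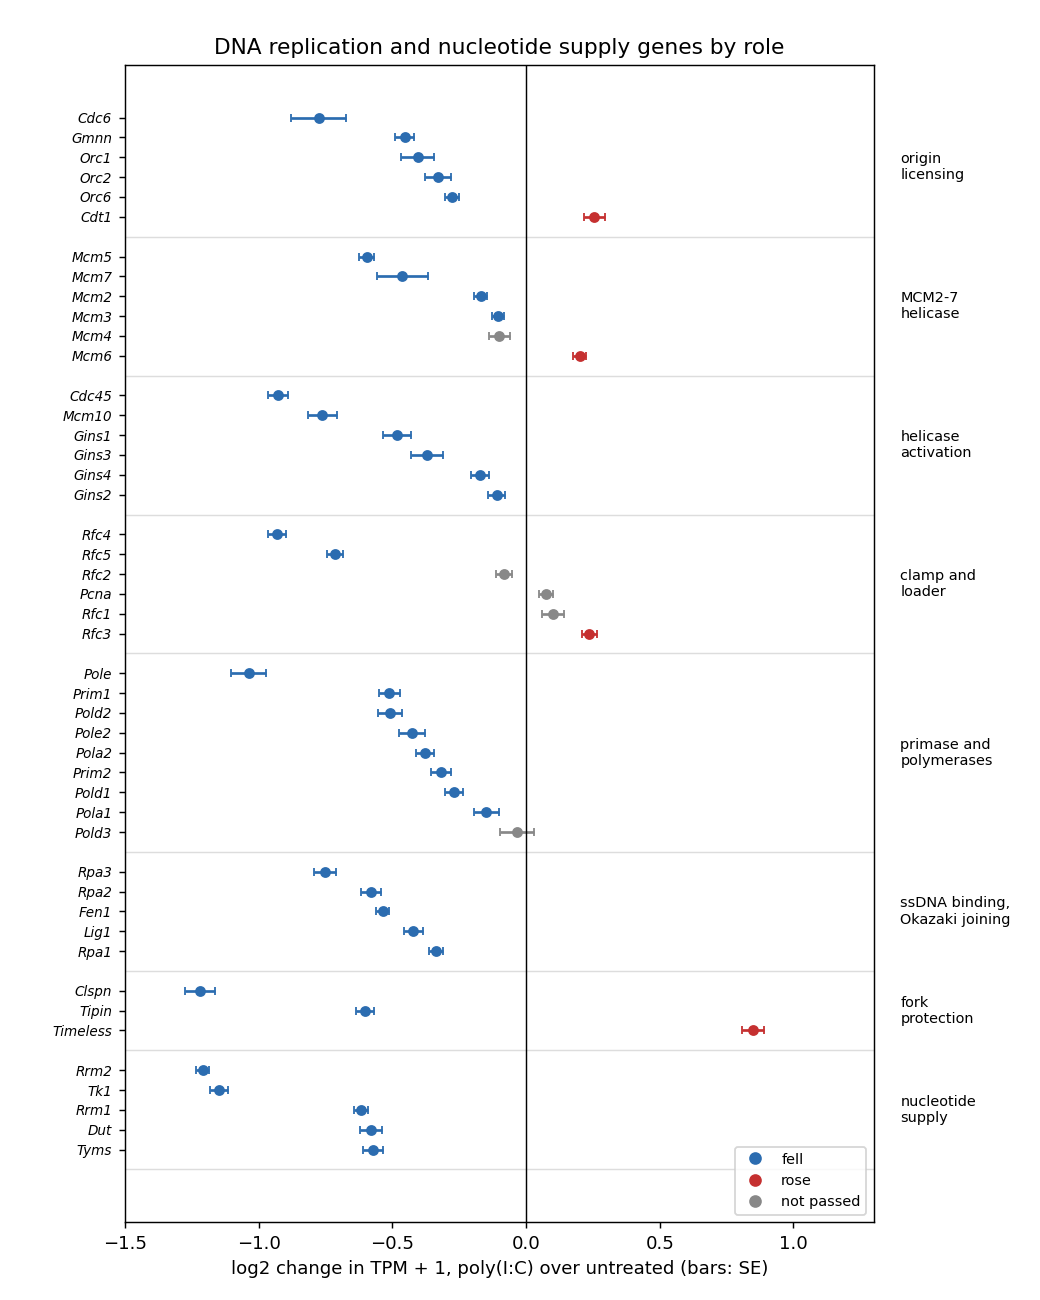
Log2 change in TPM + 1 (poly(I:C) over untreated, x axis) for each of the 46 genes (y axis), grouped by role. Points are limma estimates from 2 libraries per group, bars are their standard errors, and colour gives the call at an adjusted p under 0.05: 37 fell, 4 rose and 5 did not pass.

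**Figure D2:**
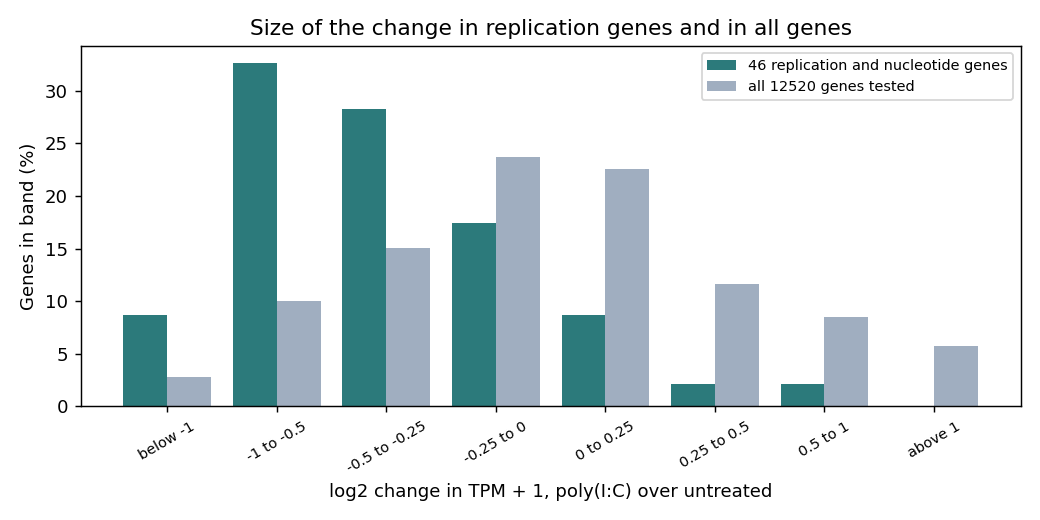
Share of genes (%, y axis) in each band of log2 change (x axis), for the 46 genes (left bar of each pair) and all 12520 genes tested (right bar). The 4 bands under 0 hold 40 of the 46 genes.

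All 10 interferon-stimulated genes listed as a check of the treatment rose, with a median log2 change of 3.68. The cDC1 markers were present in each library, with Irf8 at 2558 and 2639 TPM in poly(I:C) libraries and 2482 and 2477 TPM in untreated ones. Of the 11 markers, 5 rose, 5 fell and 1 did not pass. Among those that fell was Itgax, the gene of CD11c, whose promoter drives large T antigen in this line. It was at 216 and 220 TPM in poly(I:C) libraries and 369 and 348 TPM in untreated ones (log2 change -0.71, adjusted p = 3.1e-05 in limma). The level of large T antigen itself was not tested. Markers of other cell types moved too. The summed level of the 9 macrophage markers was 537 and 561 TPM in the poly(I:C) libraries and 321 and 317 TPM in the untreated ones, mostly from the complement genes C1qa, C1qb and C1qc and from Lyz2; 7 of the 9 were tested, of which 5 rose, 1 (Lyz2) fell and 1 did not pass. In this list Csf1r, the receptor that defines macrophages, was listed at 0 in both poly(I:C) libraries and reached at most 0.469 TPM in the untreated ones. The 5 T cell markers summed to 2.23 and 2.32 TPM with poly(I:C) and 1.10 and 0.759 TPM without. Cd3e, Cd3g and Cd2 were listed at 0 in all 4 libraries, and Cd3d, which alone was tested, rose (log2 change 0.47). The 5 B cell markers summed to 7.05 and 5.89 TPM with poly(I:C) and 3.36 and 3.79 TPM without, nearly all of it Ms4a1, which alone was tested and rose (log2 change 0.73). The 6 plasmacytoid markers summed to 1289 and 1262 TPM with poly(I:C) and 184 and 186 TPM without, nearly all of it Bst2, which is also an interferon-stimulated gene. Of the 3 of these tested, Bst2 and Spib rose and Tcf4 did not pass. Spib averaged 1.69 ± 0.260 TPM with poly(I:C) and 0.0367 ± 0.00222 TPM without (SD, n = 2 libraries each; log2 change 1.37), and Siglech stayed under 0.5 TPM in all 4 libraries. The part of these markers in the replication results was not tested.

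The origin licensing genes among the 46 fell except Cdt1, and the order of the helicase loader and its inhibitor changed. Cdc6, the loader subunit that joins ORC at origins, had the lowest level of all 46 genes. It was at 2.99 and 2.85 TPM in poly(I:C) libraries and 6.25 and 5.21 TPM in untreated ones (log2 change -0.77, SE 0.10, adjusted p = 0.0015 in limma). Cdt1, which brings the MCM helicase to ORC and Cdc6, was at 160 and 158 TPM with poly(I:C), above its 138 and 128 TPM in untreated libraries (log2 change 0.26, adjusted p = 0.00285). Gmnn encodes geminin, the protein that binds and blocks Cdt1. It fell, with 128 and 121 TPM in the poly(I:C) libraries and 171 and 170 TPM in the untreated ones (log2 change -0.45). The ratio of Gmnn to Cdt1 within a library was 0.799 and 0.766 with poly(I:C) and 1.24 and 1.32 without, so Cdt1 was the more abundant transcript per length in treated cells and Gmnn in untreated cells. The ORC genes among the 46, Orc1 (log2 change -0.41), Orc2 (-0.33) and Orc6 (-0.28), fell by smaller amounts. Outside the 46, Orc4 rose (0.45), Orc5 fell (-0.20) and Orc3 did not pass (-0.14). Orc3 and Orc5 were picked with their values in view. With curated transcripts alone the sign of Orc4 turned (-0.25).

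The 6 subunits of the MCM helicase, which assemble in equal numbers into a ring, did not move together at the RNA level. Mcm5 fell most, with 209 and 214 TPM in poly(I:C) libraries and 317 and 325 TPM in untreated libraries (log2 change -0.60, SE 0.03, adjusted p = 2.57e-05 in limma). Mcm6 rose, with 328 and 325 TPM in poly(I:C) libraries and 284 in each untreated library (log2 change 0.20, SE 0.02, adjusted p = 0.000845). Mcm5 was the most abundant of the 6 in both untreated libraries, and Mcm6 in both poly(I:C) libraries. Mcm7 (log2 change -0.46), Mcm2 (-0.17) and Mcm3 (-0.10) fell as well. Mcm4 was at 112 and 108 TPM with poly(I:C) and 121 and 115 TPM without. Its groups did not overlap, but it missed the threshold (log2 change -0.10, 95% interval -0.195 to -0.0039, adjusted p = 0.0684). The fall of Mcm7 rests on untreated libraries that differed from each other, at 128 and 155 TPM against 101 and 103 TPM in the poly(I:C) libraries, and the call was lost without PolyIC01 or without PolyIC02 (highest adjusted p = 0.136). That of Mcm3 was lost under 4 alternatives (highest adjusted p = 0.134), and its log2 change ranged from -0.17 to -0.09 over the 12. Most of the Mcm5 level, 87.1% with poly(I:C) and 87.2% without, was assigned to a predicted noncoding transcript of the gene.

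**Figure D3:**
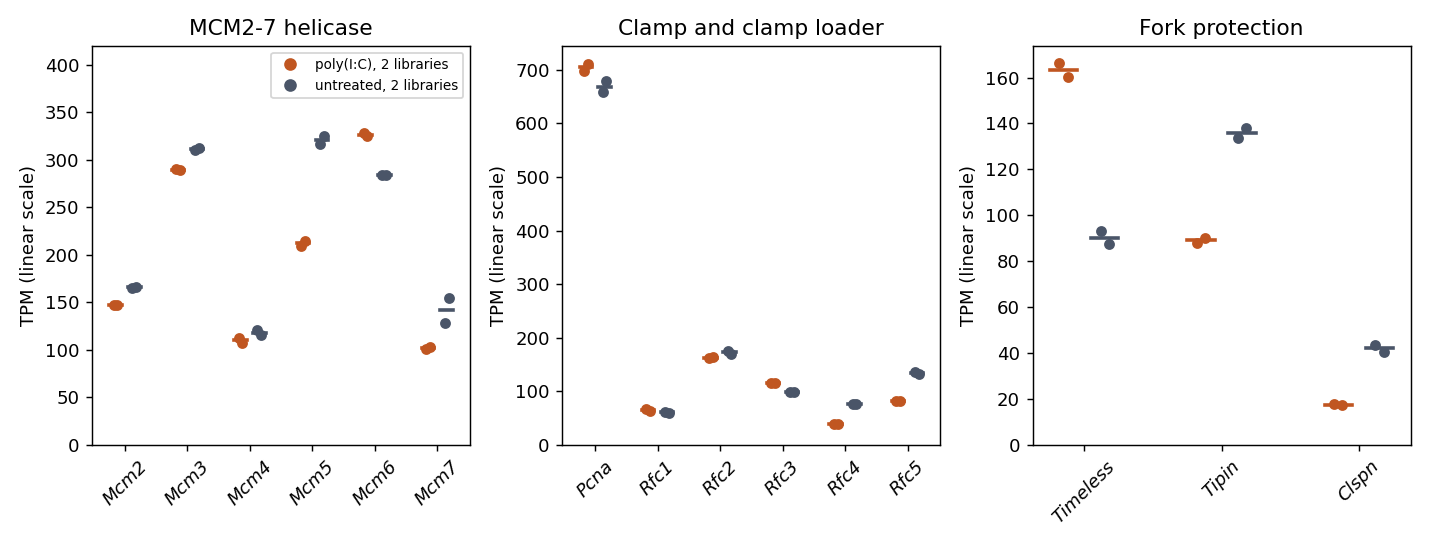
TPM (y axis, linear) of the subunits of the MCM helicase, of the sliding clamp and its loader, and of the fork protection genes, with a point per library and a line at the mean of each group, poly(I:C) on the left of each pair. Mcm6, Rfc3 and Timeless are higher in poly(I:C) libraries, while Mcm5, Rfc4, Rfc5, Tipin and Clspn are lower.

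Every gene that turns the loaded helicase into an active fork fell. Cdc45, which joins MCM and GINS in the active helicase, had the largest fall of these 6 genes, with 64.3 and 62.0 TPM in poly(I:C) libraries and 124 and 118 TPM in untreated ones (log2 change -0.93, SE 0.04, adjusted p = 1.79e-05 in limma). Mcm10, a factor needed to start unwinding, followed with a log2 change of -0.76. The 4 GINS subunits form a complex of equal numbers, and their log2 changes ranged from -0.48 for Gins1 and -0.37 for Gins3 to -0.17 for Gins4 and -0.11 for Gins2. The subunits with lower levels had the larger falls: in the untreated libraries Gins1 and Gins3 averaged 25.4 and 23.1 TPM, and Gins4 and Gins2 99.1 and 117 TPM. Gins2 was at 106 and 110 TPM with poly(I:C) and 117 TPM in each untreated library. Its call (adjusted p = 0.0292) was lost under 6 of the 12 alternatives (highest adjusted p = 0.166).

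The genes of the clamp loader moved both ways, and the difference in the sliding clamp missed the threshold. Pcna, the ring that holds polymerases on DNA, was the most abundant of the 46 genes, at 699 and 711 TPM in poly(I:C) libraries and 658 and 679 TPM in untreated ones (log2 change 0.08, 95% interval 0.01 to 0.14, adjusted p = 0.0512). The loader is a ring of 1 large subunit, Rfc1, and the smaller Rfc2, Rfc3, Rfc4 and Rfc5. Rfc4 was at 39.5 TPM in each poly(I:C) library and at 76.2 and 76.0 TPM in the untreated ones, the largest fall of this group (log2 change -0.93, SE 0.03, adjusted p = 1.15e-05 in limma). Rfc5 fell too, with 81.5 and 81.7 TPM in poly(I:C) libraries and 136 and 133 TPM in untreated ones (log2 change -0.71). In contrast, Rfc3 rose, with 115 TPM in each poly(I:C) library and 97.6 and 97.8 TPM in the untreated libraries (log2 change 0.24, adjusted p = 0.000828). The ratio of Rfc4 to Rfc3 was 0.342 in each poly(I:C) library and 0.781 and 0.777 in the untreated ones. Rfc1 was at 66.7 and 63.5 TPM with poly(I:C) and 61.7 and 59.4 TPM without (95% interval of the log2 change -0.00086 to 0.21, adjusted p = 0.0785). Rfc2 was at 162 and 164 TPM with poly(I:C) and 175 and 170 TPM without (-0.16 to -0.01, adjusted p = 0.0542). Neither passed.

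Of the 9 primase and polymerase genes 8 fell, and the catalytic subunit of the leading-strand polymerase fell most. Pole, which encodes that subunit, was at 23.0 and 21.8 TPM in poly(I:C) libraries and 49.7 and 44.4 TPM in untreated ones (log2 change -1.04, SE 0.07, adjusted p = 8.37e-05 in limma). Its partner subunit gene Pole2 had a log2 change of -0.43 over all its transcripts and of -0.82 with the curated transcript alone (adjusted p = 0.0455). That transcript held 36.0% of the Pole2 level with poly(I:C) and 47.1% without. For the lagging strand, Pold1, the catalytic subunit of polymerase delta, had a log2 change of -0.27 and its accessory subunit gene Pold2 one of -0.51. The ratio of Pole to Pold1 was 0.392 and 0.375 in poly(I:C) libraries, against 0.694 and 0.639 in untreated ones. Another delta subunit gene, Pold3, showed no detectable difference, at 29.7 and 28.4 TPM with poly(I:C) and 31.4 and 28.2 TPM without (log2 change -0.03, 95% interval -0.19 to 0.13, adjusted p = 0.673). It was the only one of the 46 genes whose groups overlapped. Primase starts each new strand with a short RNA primer. Its catalytic subunit gene Prim1 (log2 change -0.51) and its large subunit gene Prim2 (-0.32) fell, as did Pola2, the accessory subunit gene of polymerase alpha and the most abundant of this group, with 86.2 and 85.2 TPM in poly(I:C) libraries and 114 and 110 TPM in untreated ones (-0.38). Pola1, the catalytic subunit of polymerase alpha, had a log2 change of -0.15 (adjusted p = 0.0407), a call lost under 5 alternatives (highest adjusted p = 0.191).

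All 5 genes of single-strand binding and of joining Okazaki fragments, the short pieces of the lagging strand, fell. Replication protein A coats single-stranded DNA as a trimer of equal parts. Its small subunit gene Rpa3 was at 61.3 and 65.1 TPM in poly(I:C) libraries and 106 and 108 TPM in untreated libraries (log2 change -0.75, SE 0.04, adjusted p = 4.15e-05 in limma). The large subunit gene Rpa1 was at 149 and 150 TPM with poly(I:C) and 187 and 190 TPM without (-0.34), and Rpa2 had a log2 change of -0.58. Fen1, the nuclease that trims the flaps of Okazaki fragments, had a log2 change of -0.54, and Lig1, the ligase that seals them, of -0.42.

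Of the 3 fork protection genes, Timeless had the largest rise and Clspn the largest fall of all 46. The proteins Timeless and Tipin form a complex that travels with the fork and, with claspin, couples the helicase to the polymerases and to the checkpoint kinase. Timeless was at 166 and 160 TPM in poly(I:C) libraries and 93.0 and 87.5 TPM in untreated ones (log2 change 0.85, SE 0.04, adjusted p = 3.0e-05 in limma). Its 3 main curated transcripts averaged 76.1, 43.6 and 34.3 TPM with poly(I:C), against 44.9, 23.4 and 16.5 TPM in the same order without. Tipin fell, with 88.0 and 90.2 TPM in poly(I:C) libraries and 134 and 138 TPM in untreated ones (log2 change -0.60, adjusted p = 4.28e-05). The ratio of Timeless to Tipin was 1.89 and 1.77 with poly(I:C) and 0.697 and 0.634 without. Clspn, which encodes claspin, was at 17.8 and 17.2 TPM in poly(I:C) libraries and 43.5 and 40.6 TPM in untreated libraries (log2 change -1.22, SE 0.05, adjusted p = 2.27e-05). Nearly all of the Tipin level was assigned to predicted transcripts, and with curated transcripts alone its call was lost (log2 change -0.31, adjusted p = 0.0512).

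The nucleotide supply genes fell as a group and lost the most summed level of the 8 role groups. Their 5 genes summed to 505 and 502 TPM in poly(I:C) libraries and 989 and 987 TPM in untreated ones, with a median log2 change of -0.62. Ribonucleotide reductase makes deoxynucleotides from ribonucleotides and needs a large subunit, Rrm1, and a small subunit, Rrm2, that is degraded after S phase. Rrm2 was at 215 and 213 TPM with poly(I:C), against 498 and 494 TPM in untreated libraries (log2 change -1.21, SE 0.02, adjusted p = 1.92e-06 in limma). Rrm1 fell by less, with 123 TPM in each poly(I:C) library and 190 and 189 TPM in untreated libraries (log2 change -0.62, adjusted p = 1.83e-05). The ratio of Rrm2 to Rrm1 was 1.74 and 1.73 in poly(I:C) libraries and 2.61 and 2.62 in untreated ones. Tk1, the thymidine kinase of S phase, was at 73.1 and 70.1 TPM with poly(I:C) and 159 and 161 TPM without (log2 change -1.15). Tyms, which makes thymidylate, and Dut, which removes dUTP so that uracil stays out of DNA, had log2 changes of -0.57 and -0.58.

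Other nucleotide enzymes moved in both directions, and the largest rises were in genes that break down or salvage deoxynucleotides. Of 29 such genes, 27 were tested, of which 18 fell, 5 rose and 4 missed the threshold (median log2 change -0.44). Among all genes tested, 32.4% fell and 28.4% rose. Samhd1, the enzyme that hydrolyses deoxynucleoside triphosphates and thereby restricts viruses, was at 306 and 292 TPM in poly(I:C) libraries and 112 and 107 TPM in untreated libraries (log2 change 1.44, adjusted p = 4.09e-06 in limma). Dck, the kinase that salvages deoxycytidine, was at 300 and 285 TPM with poly(I:C) and 122 TPM in each untreated library (log2 change 1.26). Mthfd2 (0.27) and Tk2 (0.25), named after their values were seen, rose too. The largest falls were in Cad, which starts pyrimidine synthesis (-1.16), and Nme1, a nucleoside diphosphate kinase gene (-1.01). Rrm2b, the other small subunit of ribonucleotide reductase, was also picked after its values were seen. It was at 6.18 TPM in each poly(I:C) library and 6.58 and 5.42 TPM in the untreated ones (log2 change 0.04, adjusted p = 0.740).

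**Figure D4:**
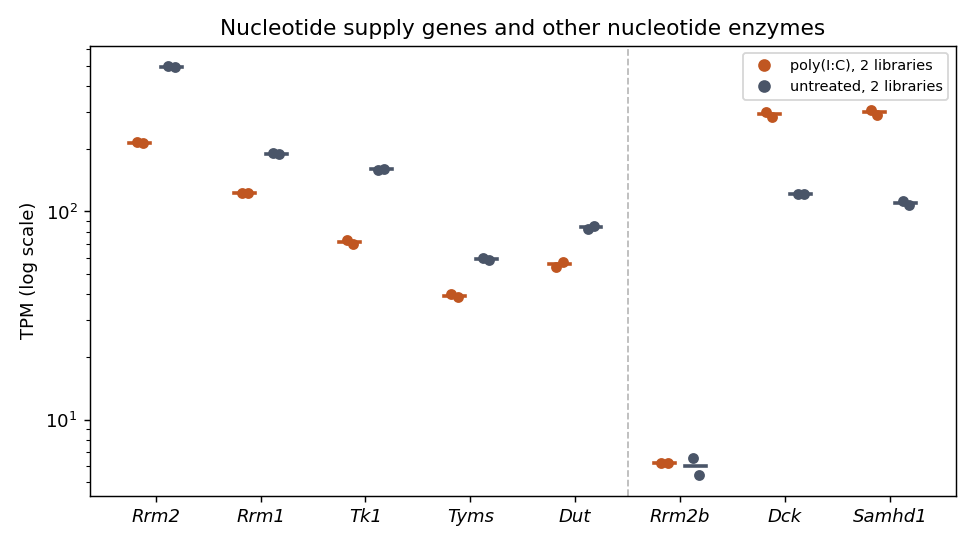
TPM (y axis, log scale) of the 5 nucleotide supply genes, left of the dashed line, and of 3 other nucleotide enzymes, with a point per library and a line at each group's mean, poly(I:C) on the left of each pair. Rrm2, Rrm1, Tk1, Tyms and Dut are lower with poly(I:C), and Dck and Samhd1 are higher.

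Most genes of 2 further lists of the pathway also fell, where 32.4% of all genes tested fell and 28.4% rose. Of 27 other replication factors 20 fell, 3 rose and 4 did not pass (median log2 change -0.40). Rnaseh2c, a subunit of the nuclease that removes ribonucleotides from DNA, averaged 45.4 ± 0.862 TPM with poly(I:C) and 133 ± 8.68 TPM without (SD, n = 2 libraries each), a log2 change of -1.53. Chtf18, part of an alternative clamp loader, had a log2 change of -1.38. The MCM-binding protein gene Mcmbp (0.50) and the ORC gene Orc4 (0.45) rose most in this list. With curated transcripts alone 1 gene of the list rose, and the sign of Orc4 turned (log2 change -0.25, adjusted p = 0.146). Of 10 genes of chromatin assembly and maintenance methylation behind the fork, 7 fell and 2 rose. Of the 7 histone chaperone genes of this list, Asf1b (-1.31), Chaf1a (-0.53), Ssrp1 (-0.25) and Nasp (-0.22) fell, Chaf1b (0.23) and Asf1a (0.20) rose and Supt16 (-0.09) did not pass. Ssrp1, Nasp and Supt16 were picked with their values in view. The call for Asf1a was lost without PolyIC01 (adjusted p = 0.0555) and without PolyIC02 (adjusted p = 0.0628), which left 1 gene that rose.

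Genes of G2 and mitosis had a lower median log2 change than the replication genes, and regulators of entry into S phase moved both ways. All 20 G2 and mitosis markers fell, with a median log2 change of -1.16, led by Ccnb2 (-1.61) and Birc5 (-1.61), and the proliferation marker Mki67 was at 72.1 and 68.3 TPM in poly(I:C) libraries and 171 and 151 TPM in untreated ones. The difference between the lists was not tested. Of 23 E2F and G1/S regulators 12 fell, 7 rose and 4 did not pass. Beside the counts of both lists, 32.4% of all genes tested fell and 28.4% rose. The CDK inhibitor gene Cdkn1a was at 631 and 627 TPM with poly(I:C) and 60.4 and 63.6 TPM without (log2 change 3.32, adjusted p = 3.99e-07 in limma). The cyclin genes Ccnd1 (0.91) and Ccne1 (0.45), which act before S phase, rose, while Ccna2, the cyclin of S phase and G2, fell (-1.48), as did the CDK inhibitor gene Cdkn2c (-1.08). Ccnd2 (0.18), Ccnd3 (0.14) and the CDK inhibitor gene Cdkn1b (0.74) rose too, and Ccne2 (-0.08) did not pass. Ccnd2, Ccnd3, Cdkn1b and Ccne2 were picked with their values in view. Of the 7 E2F genes on this list 6 fell and E2f3 (0.08) did not pass. The activator E2f2 had the largest fall (-1.04), followed by the repressors E2f8 (-0.77) and E2f7 (-0.50), by E2f5 (-0.42) and E2f4 (-0.30), and by the activator E2f1 (-0.19). E2f2, E2f3, E2f4 and E2f5 were picked with their values in view. The call for E2f1 was lost without NT01, PolyIC01 or PolyIC02 (adjusted p = 0.0816, 0.0930 and 0.0776). Rb1, the retinoblastoma gene, was at 34.8 and 33.2 TPM with poly(I:C) and 32.1 and 30.8 TPM without (log2 change 0.11, adjusted p = 0.102). It passed with median-of-ratios scaling (adjusted p = 0.0347) and with the replicate block (adjusted p = 0.0435). The related genes Rbl1 (-0.37) and Rbl2 (-0.22), picked with their values in view, fell.

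Letters of the E2F site were found in promoters of some of these genes. RefSeq promoters (GRCm38.p6), each of 300 bases from 250 before to 50 after an annotated start, were found for 37 of the 46 genes. The forms TTTCCCGC, TTTGGCGC, TTTCGCGC and TTTGCCGC were searched on both strands. At least 1 form occurred in a promoter of 15 of the 37 genes (40.5%), where 2.61% of the 27025 genes with a promoter in the table have one. The box CCAAT was found for 62.2% of the 37 genes and 41.1% of all, GGGCGG for 70.3% and 38.2%, TTTGAA for 13.5% and 20.2%, and the interferon element letters GAAANNGAA for 5.41% and 9.76%. Of the 21 E2F matches in these genes, 4 overlapped another E2F match, 1 overlapped a CCAAT and none a GGGCGG.

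The E2F letters stood in promoters of genes that rose and of genes that fell. Of the 15 genes with a match 11 fell, 3 rose and 1 did not pass (median log2 change -0.37), and of the 22 without 19 fell, 1 rose and 2 did not pass (-0.55). No test was made of this split. The 1 gene without a match that rose was Timeless. Its only window, chr10:128237816-128238115, lies inside the gene, which begins at base 128232063. The sequence before that first base was not searched. A window wholly inside the gene was also the only one for Rfc1 and Dut, both without a match. The same held for Orc1 and Cdc6, both with a match. Promoters of Mcm6 and Mcm5, of Rfc3 and Rfc4 and of Cdt1 and Cdc6 are printed 5′ to 3′ on the gene's own strand, with E2F letters in capitals, because the first of each pair rose and the second fell. Tipin and Gmnn were not among the 37 genes, so Timeless with Tipin and Cdt1 with Gmnn are not shown.
Mcm6, chr1:128359656-128359955, reverse strand: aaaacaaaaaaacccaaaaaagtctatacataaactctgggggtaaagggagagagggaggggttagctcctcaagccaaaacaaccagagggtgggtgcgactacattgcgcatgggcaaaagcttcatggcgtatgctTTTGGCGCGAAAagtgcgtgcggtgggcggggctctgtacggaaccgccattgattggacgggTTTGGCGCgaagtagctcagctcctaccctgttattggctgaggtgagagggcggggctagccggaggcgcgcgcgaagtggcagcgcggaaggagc
Mcm5, chr8:75109259-75109558, forward strand: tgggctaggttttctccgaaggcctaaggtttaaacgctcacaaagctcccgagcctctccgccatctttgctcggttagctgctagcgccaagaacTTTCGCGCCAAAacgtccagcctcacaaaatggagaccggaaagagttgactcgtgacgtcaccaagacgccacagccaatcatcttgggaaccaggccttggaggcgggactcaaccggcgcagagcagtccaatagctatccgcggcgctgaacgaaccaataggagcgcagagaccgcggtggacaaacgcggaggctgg
Rfc3, chr5:151651159-151651458, reverse strand: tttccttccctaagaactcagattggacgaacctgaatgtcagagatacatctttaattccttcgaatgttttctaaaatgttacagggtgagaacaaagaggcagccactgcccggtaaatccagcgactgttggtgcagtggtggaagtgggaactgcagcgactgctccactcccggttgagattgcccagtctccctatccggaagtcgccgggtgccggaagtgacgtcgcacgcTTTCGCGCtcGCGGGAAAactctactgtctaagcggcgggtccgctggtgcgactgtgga
Rfc4, chr16:23127681-23127980, reverse strand: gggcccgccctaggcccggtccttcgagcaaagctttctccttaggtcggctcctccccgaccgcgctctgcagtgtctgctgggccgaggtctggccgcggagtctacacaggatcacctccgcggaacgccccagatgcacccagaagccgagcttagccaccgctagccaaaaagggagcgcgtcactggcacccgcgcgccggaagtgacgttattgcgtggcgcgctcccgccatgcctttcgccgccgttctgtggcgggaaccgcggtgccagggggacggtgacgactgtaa
Cdt1, chr8:122567765-122568064, forward strand: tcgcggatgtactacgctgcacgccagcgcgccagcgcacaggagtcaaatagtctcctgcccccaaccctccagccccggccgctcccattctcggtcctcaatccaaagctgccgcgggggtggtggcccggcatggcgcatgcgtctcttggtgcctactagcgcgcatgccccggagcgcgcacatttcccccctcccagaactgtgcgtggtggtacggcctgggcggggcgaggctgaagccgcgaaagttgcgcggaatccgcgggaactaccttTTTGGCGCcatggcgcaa
Cdc6, chr11:98907901-98908200, forward strand: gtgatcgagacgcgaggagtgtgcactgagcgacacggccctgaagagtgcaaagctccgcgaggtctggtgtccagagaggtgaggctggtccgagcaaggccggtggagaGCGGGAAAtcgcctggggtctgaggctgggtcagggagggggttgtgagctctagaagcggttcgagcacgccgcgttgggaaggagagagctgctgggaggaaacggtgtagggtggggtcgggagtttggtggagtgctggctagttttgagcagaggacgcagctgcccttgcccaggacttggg
Both MCM promoters hold overlapping matches in opposite orientation, and that of Mcm6 has 1 more match closer to the start. The Rfc3 promoter has its matches at the start itself and Rfc4 has none of these letters in this window. Cdt1 has its match after the start, and Cdc6 before the start used for its window. That window lies inside the Cdc6 gene, which begins at base 98907709, and so does the match.

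**Figure D5:**
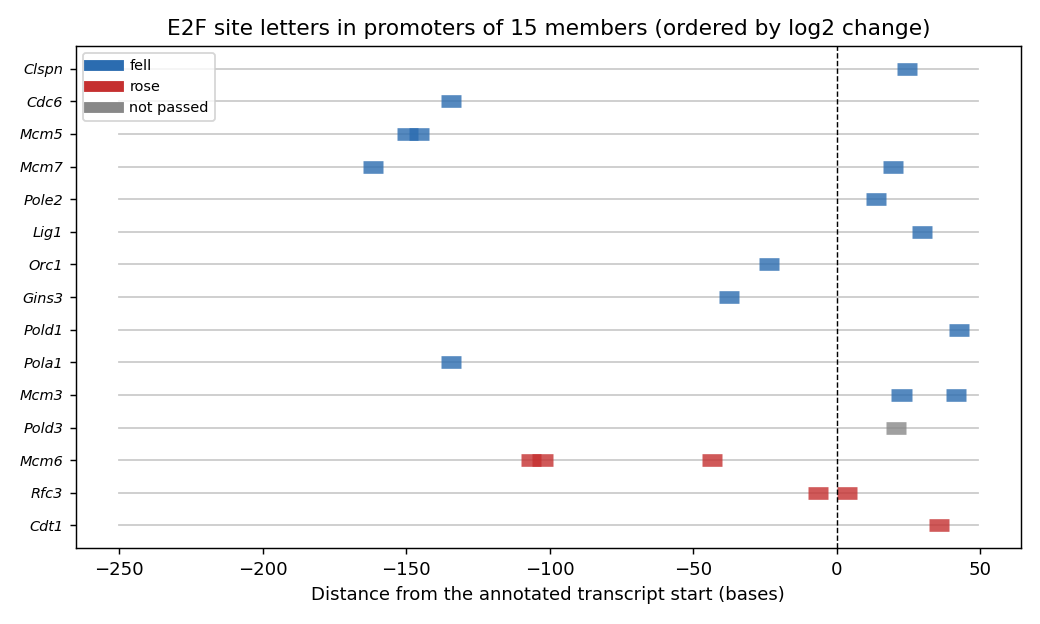
Position of each E2F letter match (bar) in promoters of the 15 genes with a match, 1 row per gene in order of log2 change. The x axis gives bases from the annotated transcript start of that window, 0 being its first transcribed base. Colour gives the call; 14 of the 21 matches begin within 60 bases of the start, and genes that rose (Mcm6, Rfc3 and Cdt1) stand at the bottom.

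Exons of 14 of the 46 genes overlap a gene on the opposite strand in the GENCODE annotation, and the sources used here do not say if the authors counted by strand. The longest such overlap was that of Gins2 with Gse1, over 2758 bases, and the Gse1 level was 40.4 and 37.5 TPM with poly(I:C) and 34.6 and 30.8 TPM without. Among the genes that rose, Timeless shares 111 bases with the noncoding gene Gm26847, which was at 2.17 and 2.04 TPM with poly(I:C) and 1.42 and 1.08 TPM without. Pcna and Tyms have annotated pseudogenes, so part of their reads may be shared. Pseudogenes of the other genes were not searched for.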

How the data were processed

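Per the labels' protocols, polyadenylated RNA was made into directional libraries with the NEBNext Ultra II kit. Named in the submitters' processing notes, without roles, are kallisto 0.42.4, bcl2fastq 2.20.0.422 and GRCm38. The deposited file is named for FPKM, but each column used sums to 1000000, so the deposited values were taken for TPM, 1 row per RefSeq transcript. Depth cannot be read from TPM, so no counting interval was made. The header holds 5 names for 6 value columns, which leaves the group of 2 columns unsettled; these 2 were not used. For the other 4 the group is clear however the header is read, but their replicate numbers are unsettled.

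TPM of 86722 of 107384 transcripts (80.8%), holding 91.8% to 92.2% of each library, were summed per symbol through the RefSeq gene table (GRCm38.p6). The 12520 genes that averaged 0.5 TPM or more were fitted on log2(TPM + 1) with limma 3.58.1 (trend and robust moderation, R 4.3.3), and p was adjusted by Benjamini-Hochberg over all of them. The scale understates changes of low genes. An exact permutation test of 2 against 2 libraries cannot go below p = 0.333 and was not used. Matplotlib 3.10.9, numpy 2.4.6, pandas 2.3.3 and Python 3.11.15 made tables and plots. Some genes of the lists are not reported here by name. The genes, their lists and the alternatives were chosen with earlier results of these data known. In each role group, values per library are given for the largest fall, largest rise, highest level and genes that missed the threshold. They are also given for both reductase subunits and, in the context lists, for Samhd1, Dck, Rrm2b, Cdkn1a, Mki67 and Rb1. Other genes named from the context lists have a log2 change, Rnaseh2c with group means. These include the rest of the 2 largest called changes in each direction and of the regulators set with the lists. Further genes of a role group are given by their log2 change or, where a ratio or a doubtful call turns on them, by library.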

Additional observations from a re-analysis of the deposited data

How the results depend on the processing

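The 12 alternatives were a pseudocount of 0.1, no filter or a filter of 5 TPM, limma without trend or robust moderation, 2 other scalings, curated transcripts only, a replicate block and leaving out each library. Across them 34 to 39 of the 46 genes fell and 4 to 6 rose. The 4 rises (Mcm6, Rfc3, Cdt1 and Timeless) and 32 of the falls passed under each alternative that could be fitted. Calls for Mcm3, Mcm7, Gins2, Pola1 and Tipin were lost under some, and Mcm4, Pcna, Rfc1 and Rfc2, which missed the threshold, passed under 2 or 3. The sign turned for Pold3 without NT01 (log2 change 0.0398, adjusted p = 0.617; range -0.107 to 0.0398 when single libraries were left out) and for Orc4 with curated transcripts (-0.25); the cause was not tested. Among other replication factors 1 gene rose with curated transcripts, against 3; in the chromatin assembly list 1 to 2 genes rose when single libraries were left out. All other counts stayed within 1.5 times. With the replicate block by heading number 38 of the 46 genes fell and 6 rose; the numbers are unsettled and deviations of headings 01 did not move together (r = 0.02 across genes), so they were not taken as pairs. Depth is unknown, so the counting error of low genes such as Cdc6 is too.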
